A study of Drosophila melanogaster with 23 samples.

Results

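The X-linked genes *swa* (FBtr0070922), *fs(1)N* (FBtr0070207), *fs(1)Yb* (FBtr0070484) and *hdm* (FBtr0071133) act in the ovary or in meiosis, yet each gave a bright signal in wing imaginal discs of *Myb* mutant larvae and a dim one in discs of *yw67* control larvae. These 4 transcripts were chosen by their measured difference between the 2 genotypes on the arrays described here, together with their known roles, out of 21051 transcripts in the table, of which 16637 varied between arrays and could be tested. Their difference between genotypes is therefore given as a description, without a test.

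Wing imaginal discs, the larval epithelia that form the adult wing and thorax, were dissected from male 3rd instar *Drosophila melanogaster* larvae kept at 25 °C. The mutant larvae were hemizygous for *Myb* MH107, a null allele made by mobilizing a P element. It lacks the start of *Myb* together with the dispensable gene *AlkB*, and it is lethal at the early pupal stage. They carried it on an X chromosome marked *w1118* and were picked as males without the GFP-marked balancer, from a line outcrossed into the *y1 w67c23* laboratory stock. The controls were males of the yellow-bodied, white-eyed *yw67* stock, and no other agent or allele was given for either group. Each genotype had 3 biological replicates, which were hybridized to 12 mutant and 11 control single-color arrays. The signals are linear RMA intensities (background-corrected, quantile-normalized and summarized over the probes of a transcript), and a replicate's value is the mean of its technical arrays on the log2 scale.

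*swa* encodes Swallow, which is needed to hold *bicoid* mRNA at the anterior pole of the oocyte. *fs(1)N* encodes Nasrat, a secreted protein of the vitelline membrane, the inner layer of the eggshell, where it takes part in patterning the ends of the embryo. *fs(1)Yb* encodes Yb, a Tudor- and helicase-domain protein of somatic gonad cells that organizes the bodies in which piRNAs, the small RNAs that silence transposons, are processed. *hdm* encodes Hold'em, an OB-fold protein required for meiotic crossovers. These functions are known from the female germline and the somatic cells around it.

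The study designed primers to 3 of the 4 genes, and these sequences mark the places at which the genes were followed in DNA or RNA. They are given 5′ to 3′ in lower case, and all are on the X chromosome. The first 3 pairs lie at insulator sites, DNA elements bound by proteins such as CP190 and BEAF-32 that separate a gene from the regulation of its neighbor, between each member and the gene beside it. The site between *swa* and *Marf*, the mitofusin gene, was covered by this pair:
swa and Marf forward: attctagtcggcaatgtacgg
swa and Marf reverse: agctgatgcgttttcaaatgg
The site between *fs(1)N* and *DAAM*, which encodes a formin that assembles actin, was covered by this pair:
DAAM and fs(1)N forward: agtgagcttggttttcgttttc
DAAM and fs(1)N reverse: accactttggaggtctttcc
The site between *hdm* and *Ykt6*, which encodes a SNARE of membrane fusion, was covered by this pair:
hdm and Ykt6 forward: ttaaaacatttacagaaagttgcgc
hdm and Ykt6 reverse: acatatgcgtagtgtgtgtcag
A further 2 pairs were made for the histone marks H3K4me3, found at active promoters, and H3K27me3, laid down by Polycomb proteins on silent genes. They show which genes were assayed at the *swa* and *fs(1)N* loci themselves:
swa histone forward: ggtgctgtgagttgtcctg
swa histone reverse: cagggcttcaacgagtatgtc
fs(1)N histone forward: gtcttatgtccacccctttcc
fs(1)N histone reverse: tccaatcgcagccagataag
A single pair was made to measure *swa* RNA:
swa transcript forward: ctacgcggatccagactttg
swa transcript reverse: cttctcgcaacccagtttatg
Chromatin and PCR measurements were not analysed here, and no pair for *fs(1)Yb* is given.

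The transcript of *swa* showed the largest difference of the 4. Its signals were 4538, 4450 and 4353 in mutant replicates 1, 2 and 3, against 68.7, 76.3 and 61.0 in the control replicates. The 12 mutant arrays lay between 4074 and 4723 and the 11 control arrays between 55.4 and 81.0, so the lowest mutant array was 50.3-fold above the highest control array. The log2 means were 12.12 ± 0.03 in the mutant and 6.10 ± 0.16 in the control (SD, n = 3 each), a log2 change (mutant minus control) of 6.02 (SE 0.09), or 65.0-fold. Ordered by signed change over all tested transcripts, with the largest increase first, *swa* ranked 3. A pseudogene annotated as a copy of *swa*, *swaPsi*, is the gene next to it, and signal from the copy could not be separated from that of *swa* in a table without probe sequences.

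*fs(1)N* had signals of 2117, 2125 and 1948 in the mutant replicates, against 81.6, 107.7 and 90.9 in the control replicates. All mutant arrays (1836 to 2335) were at least 15.5-fold above the highest control array (118.5). The log2 means were 11.01 ± 0.07 in the mutant and 6.54 ± 0.20 in the control (SD, n = 3 each). The log2 change was 4.47 (SE 0.11), or 22.2-fold, and ranked 16 in the same order of increases.

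*fs(1)Yb* kept the clearest signal in the control. Its values were 5091, 4966 and 5118 in the mutant replicates, against 213.3, 303.3 and 216.6 in the control replicates. Control replicate 2 stood above the other two on all of its arrays, with the highest control array at 316.5 and the lowest mutant array at 4841. The log2 means were 12.30 ± 0.02 in the mutant and 7.91 ± 0.29 in the control (SD, n = 3 each), and the log2 change was 4.39 (SE 0.14), or 21.0-fold, which ranked 19 among the increases.

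*hdm* had the smallest change of the 4. Its signals were 1360, 1394 and 1439 in the mutant replicates, against 62.42, 72.28 and 68.03 in the control replicates, and its arrays ran between 1266 and 1503 in the mutant and between 58.2 and 87.4 in the control. The log2 means were 10.45 ± 0.04 in the mutant and 6.08 ± 0.11 in the control (SD, n = 3 each). The log2 change was 4.37 (SE 0.07), or 20.7-fold, and ranked 21 among the increases. For none of the 4 transcripts did an array of one genotype overlap an array of the other, as the plot of signals by array shows. The members were chosen by this difference, and overlap of arrays was not counted over all tested transcripts. Nothing is therefore read from their separation.

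**Figure D1:**
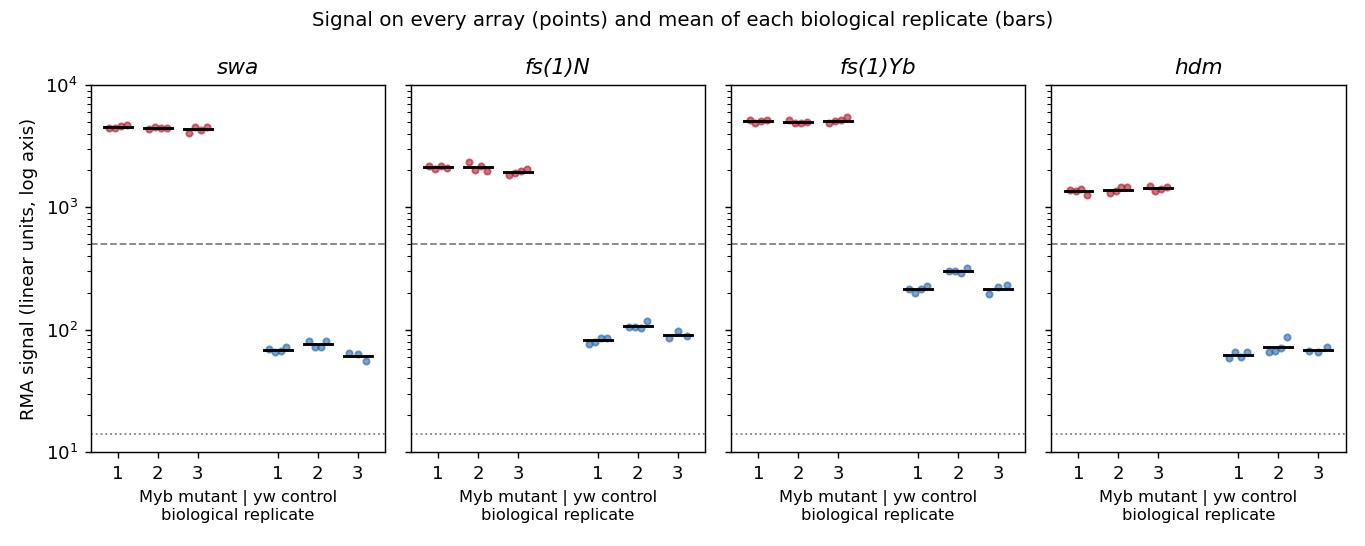
RMA signal (linear units on a log axis) of the 4 transcripts on each array, with biological replicates 1 to 3 of the Myb mutant on the left and of the yw control on the right of each panel. Points are technical arrays, bars are replicate means, the dashed line is the signal minimum of 500 and the dotted line is 14.158, the value held by rows that did not vary. Every mutant array lies above 500 and every control array below it.

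By the rule of the study's methods, an adjusted p under 0.001 and a signal of at least 500 in at least 1 replicate, 4 of 4 members were called, and all 4 were higher in the mutant. Over the 16637 tested transcripts 234 were called (1.41%), of which 131 (0.787%) were higher in the mutant. Since the members were picked on this contrast, nothing is read from their count. With the replicate number as a block, 61 transcripts were called and the members called were again 4.

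The 3 genes *fs(1)N*, *fs(1)Yb* and *hdm* had changes within 0.10 of each other on the log2 scale (SE of the differences 0.09 to 0.12). The change of *swa* exceeded those of the other 3 by 1.55, 1.63 and 1.65 (SE 0.10, 0.11 and 0.10). These differences depend on the dim end of the scale. With all signals under 100 set to 100, the changes were 5.47 for *swa*, 4.33 for *fs(1)N*, 4.39 for *fs(1)Yb* and 3.80 for *hdm*, so that *hdm* then had a smaller change than *fs(1)N* and *fs(1)Yb*.

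The next question was whether the control signal was at background. The lowest value in the table, 14.158, belongs to 4414 rows that hold it on all 23 arrays, and the control signals of the members lay above it by 4.83-fold for *swa*, 6.55-fold for *fs(1)N*, 17.0-fold for *fs(1)Yb* and 4.76-fold for *hdm*. That value is a floor of the table rather than a reading of background, so genes altered by the genotypes served as a second gauge. Of these, only *AlkB* in the mutant is known to be deleted, and whether *w* in the control was at background was not tested. *AlkB*, deleted in the mutant, gave 48.3, 50.9 and 46.6 in the mutant replicates, against 608.3, 757.7 and 642.6 in the control replicates (limma, adjusted p = 5.88e-06). The white gene *w* gave 4076, 4095 and 3217 in the mutant replicates, against 69.0, 88.1 and 70.5 in the control replicates (adjusted p = 5.60e-06). *Myb* itself, of which only the start is removed, gave 4586, 4929 and 4717 in the mutant, against 15216, 15119 and 16233 in the control (adjusted p = 3.54e-05, or 0.00171 with the replicate block).

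The control means of *swa* (68.4) and *hdm* (67.5) were thus in the range between the deleted *AlkB* in the mutant, mean 48.6, and *w* in the control, mean 75.4. That of *fs(1)N* (92.8) was above both. The mean of *fs(1)Yb* (241.1) was 17.0-fold above the floor and well above both gauges. Signals of different probe sets are not calibrated to each other, and detection flags were not used here, so these comparisons place the genes only roughly. Of the control transcripts, 4817 (29.0%) had a signal under 100. The fold changes of *swa* and *hdm* thus have a denominator near the signal of *AlkB* where it is deleted, and their size depends on the background correction. Sensory receptor genes, listed as a further gauge, had 10 identified transcripts with control signals between 79.0 and 1962 (median 295.2), but these were identified because they tended to differ and were not all dim.

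**Figure D2:**
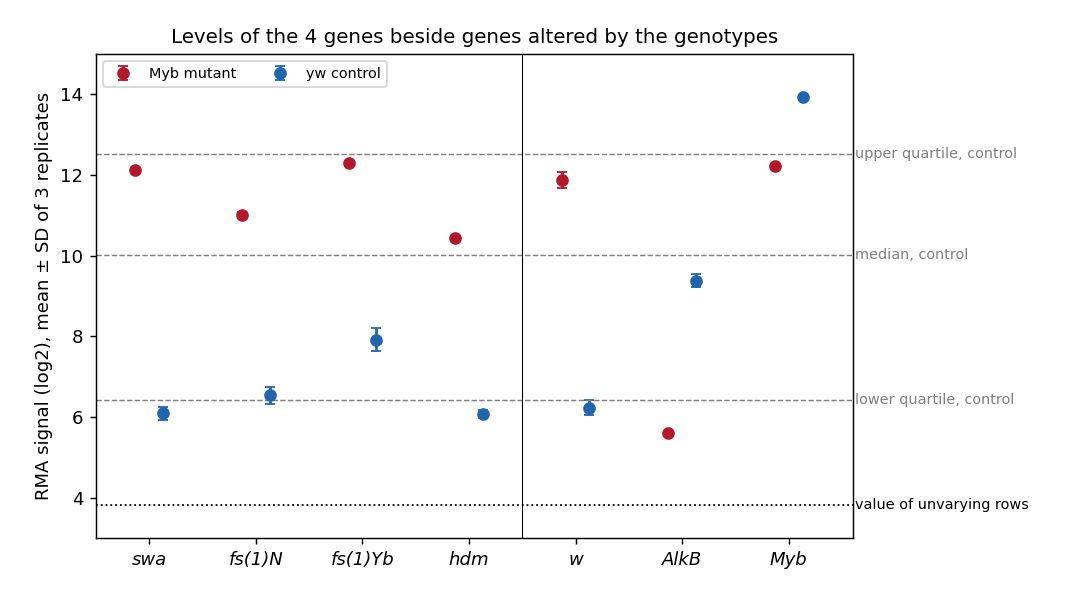
Mean RMA signal (log2) ± SD of 3 biological replicates in the Myb mutant (red, left) and the yw control (blue, right) for the 4 members and, right of the vertical line, for w, AlkB and Myb. Dashed lines are quartiles of the tested transcripts in the control and the dotted line is the value of rows that did not vary. The control points of swa and hdm lie below the lower quartile of 85.5 signal units, that of fs(1)N just above it, and all mutant points of the 4 members lie above the median.

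Ranked among the tested transcripts by mean signal, the members moved out of the dim end of the table into its brighter part. *swa* was at percentile 69.6 in the mutant (rank 5050) and at percentile 17.6 in the control (rank 13708). *fs(1)N* was at percentile 57.7 in the mutant and 27.1 in the control, and *fs(1)Yb* was at percentile 72.0 in the mutant and 39.1 in the control. *hdm* was at percentile 53.1 in the mutant (rank 7806) and 17.0 in the control (rank 13803). All 4 mutant means lay above the median of 1049 signal units, and none reached the upper quartile of 5907. Over all rows of the table, the unvarying ones included, the mutant percentiles were 76.0 for *swa*, 66.6 for *fs(1)N*, 77.9 for *fs(1)Yb* and 62.9 for *hdm*. With signals under 100 set to 100 and the rows that then no longer varied left out, 13459 transcripts remained, and the mutant percentiles were 62.5, 47.7, 65.4 and 42.0 in the same order of genes, so that *fs(1)N* and *hdm* lay below the median of that smaller set.

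Few of the transcripts at the control level of a member reached a mutant signal of 500. Within 0.25 (log2) of the control level of *swa* there were 2140 tested transcripts, whose median change was -0.04, and 9 of them had a mutant signal of at least 500. Around *hdm* the numbers were 2181 transcripts, a median of -0.03 and 9 at or above 500. The control levels of *swa* and *hdm* were close (log2 means of 6.10 and 6.08). Their windows therefore share most of their transcripts, and the counts around them are not separate observations. Around *fs(1)N* 20 of 1424 transcripts, and around *fs(1)Yb* 29 of 440 transcripts, had such a mutant signal. *fs(1)Yb* started nearer to 500 than the other members, so a smaller rise was enough there. A log2 change over 4 was found for 4 transcripts around *swa*, 9 around *fs(1)N*, 1 around *fs(1)Yb* and 4 around *hdm*. These counts include the members themselves, which were chosen for this difference.

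The mutant replicates of the members were closer to each other than the control replicates. The SDs of the log2 means were 0.02 to 0.07 in the mutant and 0.11 to 0.29 in the control. Among transcripts within 0.5 (log2) of the same level, the mutant SD of *fs(1)Yb* lay at percentile 4.55, that of *swa* at 6.74, that of *hdm* at 7.21 and that of *fs(1)N* at 23.6. The control SDs lay between percentile 32.9 for *hdm* and percentile 56.0 for *fs(1)Yb*. The members were chosen by their difference on these same arrays, and such a choice can favor transcripts with a small spread. Their low mutant SDs are therefore not read as a trait of these genes. The SD between technical arrays of a replicate had a median over replicates of 0.06 to 0.08.

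Control replicate 2 gave the highest control signal for all 4 genes. It was also the highest control replicate for 45.9% of all tested transcripts, against 23.5% for replicate 1 and 30.6% for replicate 3. In the mutant no single replicate was highest throughout, since replicate 1 was highest for 1 gene, replicate 2 for 1 and replicate 3 for 2. Leaving out any biological replicate kept the change of *swa* between 5.94 and 6.10, of *fs(1)N* between 4.38 and 4.58, of *fs(1)Yb* between 4.30 and 4.56, and of *hdm* between 4.32 and 4.42.

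The genes beside the members were then compared, because a neighbor's transcript was not used to choose the members. The 5 annotated genes on each side, taken in the gene order of the Release 6 annotation, gave 40 genes. A transcript could be identified for 9 of these, and 0 of the 9 were called, beside 1.41% of all tested transcripts. In the same limma fit, 4 of the 9 passed an adjusted p under 0.05 with the signal minimum, a rule under which 1066 transcripts were called (6.41%). With the replicate block, *CG2685* and *Ykt6* no longer passed it (adjusted p = 0.0945 and 0.0600). Names were at hand only for the 1999 transcripts with the smallest p-values in the study, so an identified neighbor is one that tended to differ. All 234 called transcripts had a name, and the 31 other neighbors, *Marf* and *DAAM* among them, were not among those called.

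Beside *fs(1)Yb*, the next 2 genes on one side were also higher in the mutant, at much lower signals. *fs(1)Ya*, which encodes a nuclear envelope protein needed for the first embryonic divisions, gave 315.1, 320.7 and 340.8 in the mutant replicates, against 56.8, 98.7 and 61.4 in the control replicates. Its log2 change was 2.21 (SE 0.21, adjusted p = 0.00156), which missed the threshold. *vilya*, which encodes a RING-domain protein of meiotic double-strand breaks, gave 348.7, 323.4 and 341.2 in the mutant replicates, against 50.9, 70.9 and 54.5 in the control replicates. Its log2 change was 2.54 (SE 0.13, adjusted p = 0.000122). It passed the threshold but stayed below the minimum of 500, and with the replicate block its adjusted p was 0.00318. For both genes control replicate 2 was again the highest control, and neither gene overlaps *fs(1)Yb* in the annotation.

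Further genes around *fs(1)Yb* differed little. *CG2685* had a log2 change of 0.24 (SE 0.05, adjusted p = 0.0493) and *ttm50*, a gene of the mitochondrial import machinery, one of 0.19 (SE 0.06, adjusted p = 0.109), both bright in all replicates. The gene *w*, which differed 50.0-fold between the genotypes, lies on the same part of the chromosome, with 9 annotated genes between it and *fs(1)Yb*. In the same order, 206 genes lie between *w* and *fs(1)N*, 355 between *w* and *swa* and 538 between *w* and *hdm*. *Myb* is farther away, with 959 genes between it and *hdm*, the nearest member. The mutant chromosome carries *w1118* and the control chromosome *w67c23*, and for sequence linked to *w* the loss of *Myb* and the origin of the chromosome cannot be told apart.

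At *hdm*, the gene next to it across the insulator site, *Ykt6*, was bright in both genotypes. Its signals were 6524, 6119 and 5949 in the mutant replicates, against 7836, 7645 and 7372 in the control replicates. The log2 change was -0.30 (SE 0.06, adjusted p = 0.0424). On the other side of *hdm* the gene 3 places away, *dpr14*, a cell-surface immunoglobulin-domain gene, gave 166.2, 165.4 and 114.1 in the mutant replicates, against 46.1, 55.3 and 46.2 in the control replicates. Its log2 change was 1.58 (SE 0.17, adjusted p = 0.00275), at signals under the minimum.

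Next to *fs(1)N*, *CG11409* gave 5651, 5428 and 4598 in the mutant replicates, against 3037, 3572 and 2653 in the control replicates. The log2 change was 0.76 (SE 0.13, adjusted p = 0.0193), 1.70-fold, beside 22.2-fold for *fs(1)N*. *MTPAP*, the mitochondrial poly(A) polymerase gene, changed by 0.23 (SE 0.07, adjusted p = 0.108). Around *swa* the one identified neighbor, *CG3842*, was lower, at 1320, 1260 and 1122 in the mutant replicates and 2141, 2180 and 2300 in the control replicates (log2 change -0.84, SE 0.08, adjusted p = 0.00173). Thus the identified genes around the members did not share their size of change, and those with the next largest changes were dim.

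**Figure D3:**
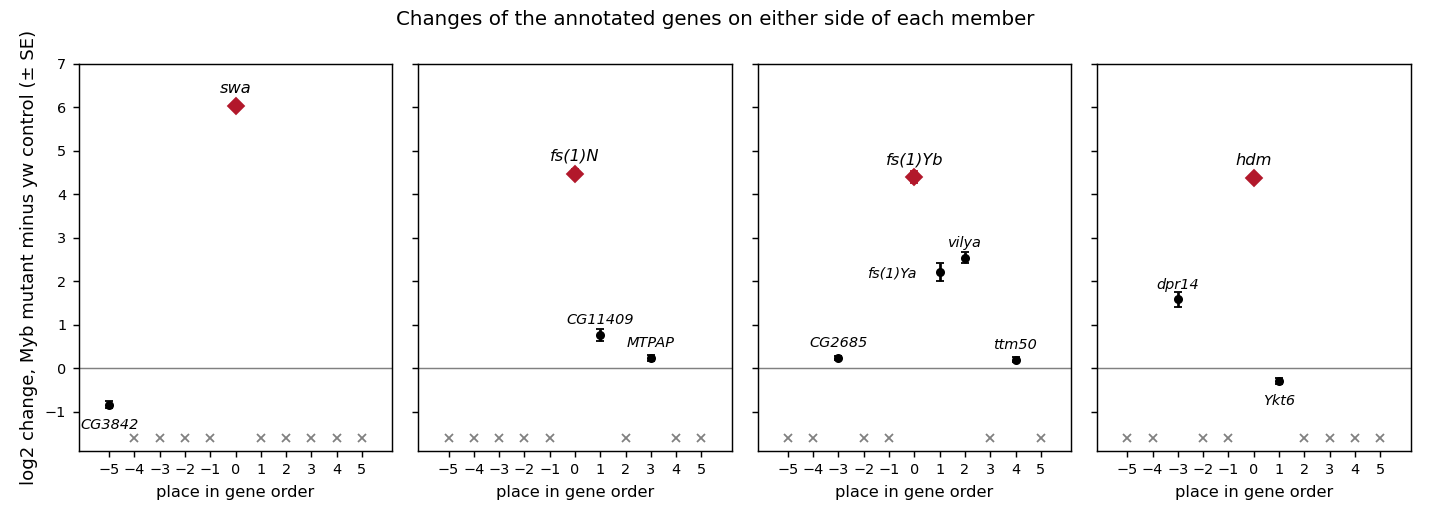
Log2 change (Myb mutant minus yw control, ± SE of the fit) of each member (red diamonds) and of the annotated genes up to 5 places away on either side (black circles), in gene order. Grey crosses at the bottom mark neighbors with no identified transcript. The members lie at 4.37 to 6.02, fs(1)Ya and vilya beside fs(1)Yb at 2.21 and 2.54, dpr14 near hdm at 1.58, and the other 6 between -0.84 and 0.76.

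To see whether other ovary and meiosis genes differed, 5 lists with 139 genes other than the members were counted, taking for each gene its brightest transcript. Of these, 49 had an identified transcript, and 10 were called (7.19% of those listed), 4 higher and 6 lower in the mutant. Over all tested transcripts 1.41% were called, but genes with a brightest transcript and single transcripts are not the same unit. The other 90 genes were not among the called transcripts. The median change of the 49 was -0.11, against 0.20 for all named transcripts, which were identified in the same way, and -0.01 for all tested transcripts. The lists thus moved in both directions. The count of 10 was 3 with the replicate block, and 2, 2 and 8 without mutant replicate 1, 2 and 3, and 3, 13 and 3 without control replicate 1, 2 and 3.

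Among genes of meiotic recombination and synapsis, 1 was called higher and 3 lower of 38 listed and 18 identified, beside 1.41% of all tested transcripts. *sunn*, which holds sister chromatids together in meiosis, rose most, to 1804, 1892 and 2168 in the mutant replicates, against 103.7, 121.3 and 93.3 in the control replicates. Its log2 change of 4.21 (SE 0.12, adjusted p = 9.90e-06) was close in size to those of *fs(1)N*, *fs(1)Yb* and *hdm*, and it was called with the block (adjusted p = 0.000998) and after leaving out any one replicate. *corolla*, a gene of the synaptonemal complex, fell to 118.1, 122.3 and 144.6 in the mutant, against 609.5, 704.2 and 703.2 in the control (log2 change -2.39, SE 0.11, adjusted p = 6.91e-05).

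*mei-217* and *mei-218*, a pair made from one bicistronic RNA that promotes crossovers, also fell. *mei-218* gave 1548, 1638 and 1086 in the mutant, against 7898, 8271 and 7133 in the control (log2 change -2.47, SE 0.17, adjusted p = 0.000360), and *mei-217* changed by -2.56 (SE 0.13, adjusted p = 0.000117). As the pair shares an RNA, these are not independent. *mei-218* was not called with the block (adjusted p = 0.00210). Below the threshold or the minimum, *c(2)M* and *c(3)G*, both of the synaptonemal complex, had changes of 1.62 (SE 0.14, adjusted p = 0.00103) and 1.29 (SE 0.15, adjusted p = 0.00353), and *narya*, a relative of *vilya*, had one of 0.84 (SE 0.19, adjusted p = 0.0525). *hdm* and *sunn* thus stood higher in mutant discs while *mei-217*, *mei-218* and *corolla* stood lower.

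In the piRNA pathway, in which Yb acts, 3 genes were called higher and 2 lower of 32 listed and 15 identified, beside the same 1.41%. *tej*, a Tudor-domain gene of the germline nuage, rose to 1040, 1088 and 1209 in the mutant, against 219.6, 179.1 and 168.8 in the control (log2 change 2.56, SE 0.12, adjusted p = 8.54e-05). *krimp*, of the same structure, rose by 2.03 (SE 0.12, adjusted p = 0.000184), and *del*, which acts at piRNA clusters in chromatin, by 1.19 (SE 0.08, adjusted p = 0.000427). *vret*, whose product sits in Yb bodies, fell to 426.2, 403.6 and 500.6 in the mutant, against 1444, 1508 and 1493 in the control (log2 change -1.75, SE 0.09, adjusted p = 0.000136). *shu*, a co-chaperone gene for loading piRNAs, changed by -1.30 (SE 0.08, adjusted p = 0.000294). With the replicate block none of these 5 was called (adjusted p 0.00267 to 0.00806).

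Other piRNA genes did not pass. *piwi*, the nuclear piRNA effector, had a change of 0.75 (SE 0.08, adjusted p = 0.00306), *spn-E* one of -1.36 (SE 0.12, adjusted p = 0.00141), *rhi* one of -0.81 (SE 0.16, adjusted p = 0.0272) and *BoYb*, a relative of *fs(1)Yb*, one of -0.85 (SE 0.18, adjusted p = 0.0350). *BoYb* was dim in both genotypes, at 93.5, 77.2 and 91.8 in the mutant and 194.2, 123.7 and 162.6 in the control.

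No listed gene of oocyte RNA localization and translation, the process of *swa*, was called (24 listed, 3 identified), beside 1.41% of all tested transcripts. *vas*, which encodes the germline helicase Vasa, gave 183.3, 179.3 and 277.9 in the mutant, against 54.0, 55.2 and 55.5 in the control (log2 change 1.93, SE 0.17, adjusted p = 0.00129). *cup*, a translational repressor, had a change of 0.57 (SE 0.11, adjusted p = 0.0314) and *exu*, which localizes *bicoid* mRNA together with *swa*, one of -0.58 (SE 0.08, adjusted p = 0.00621).

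No listed gene of the eggshell and terminal patterning, the process of *fs(1)N*, was called either (33 listed, 7 identified), beside the same 1.41%. *Cp15*, a chorion gene, had a change of 0.91 (SE 0.07, adjusted p = 0.000805) at 235.9 to 254.6 in the mutant and 126.9 to 141.8 in the control, below the minimum. *Pxd*, a peroxidase gene, changed by 0.81 (SE 0.11, adjusted p = 0.00784), *pip*, which acts in dorsoventral patterning, by -1.14 (SE 0.13, adjusted p = 0.00408) and *wbl*, which acts with it, by -1.08 (SE 0.12, adjusted p = 0.00301).

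Of the genes for the maternal nucleus and egg activation, 1 of 14 listed and 6 identified was called, beside 1.41% of all tested transcripts. *cort*, which encodes an activator of the anaphase-promoting complex in female meiosis, fell to 159.9, 165.4 and 209.6 in the mutant, against 501.1, 509.5 and 505.9 in the control (log2 change -1.51, SE 0.11, adjusted p = 0.000538), just over the signal minimum, and was not called with the block (adjusted p = 0.00570). *Cks30A*, *fzy* and *gammaTub37C* had changes of -0.57, -0.44 and 0.51 with adjusted p of 0.00272, 0.0350 and 0.0298.

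**Figure D4:**
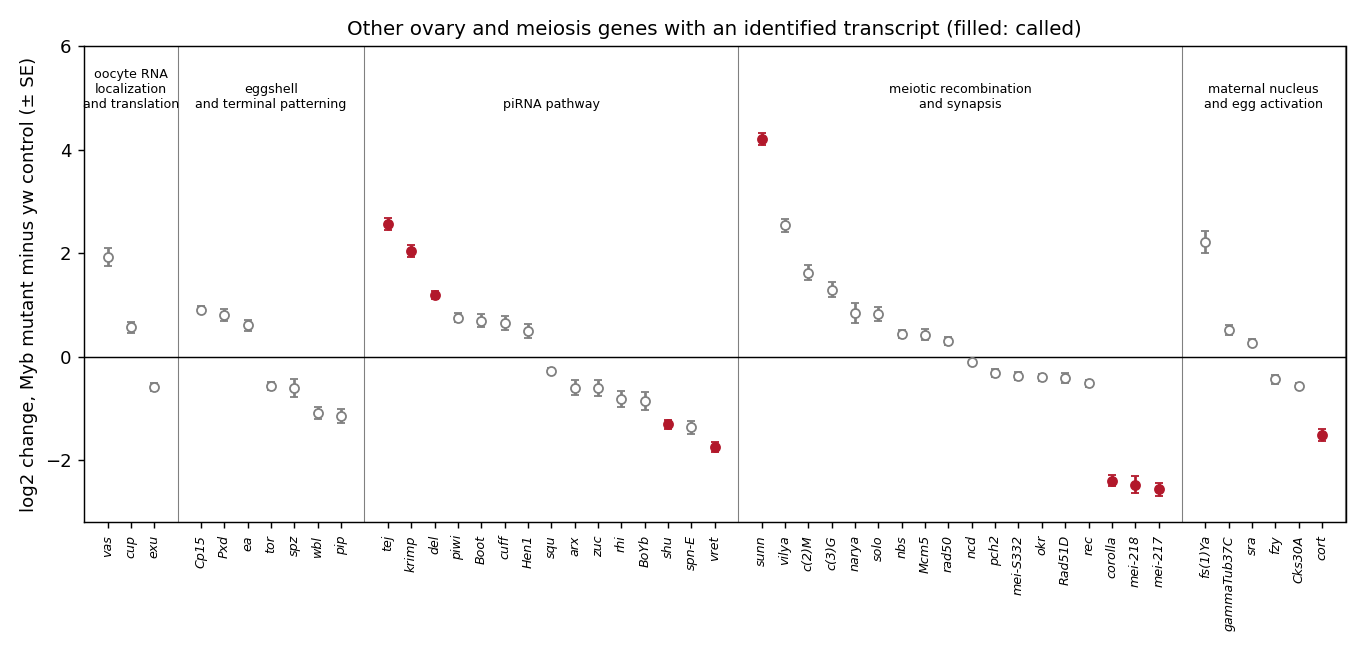
Log2 change (Myb mutant minus yw control, ± SE of the fit) of the 49 identified genes of 5 ovary and meiosis lists, members left out, sorted within each list. Filled red circles are the 10 called genes, 4 higher and 6 lower, and open grey circles did not pass the threshold or the signal minimum. sunn at 4.21 is the highest and mei-217 at -2.56 the lowest.

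Tissue makeup was examined with marker lists, since gonad or other tissue could carry such transcripts into a dissection. Of 18 gonad and germline markers 5 were identified, 0 were called by the brightest transcript, and the summed signal ran between 9782 and 12515 in the mutant replicates and between 4983 and 6146 in the control replicates, most of it from *chinmo*, a gene also used outside the gonad. In signal, 3 of the 5 were higher in the mutant. These were *vas* (log2 change 1.93, SE 0.17, adjusted p = 0.00129), *chinmo* (1.46, SE 0.13, adjusted p = 0.00121) and *bgcn* (0.39, SE 0.08, adjusted p = 0.0337). The other 2 were lower, *bol* (log2 change -1.06, SE 0.16, adjusted p = 0.0103) and *topi* (log2 change -0.75, SE 0.13, adjusted p = 0.0191), both testis genes. All 5 were identified because they tended to differ, so nothing is read from their separation between the genotypes. A second *chinmo* transcript, outside the naming rule, was called. Fat body markers (7 identified of 9, 0 called) summed to between 49347 and 95407 in the mutant and between 6037 and 14084 in the control. Hemocyte markers (10 identified of 11, 8 called lower, or 4 with the replicate block) summed to between 3770 and 4534 in the mutant and between 50812 and 61937 in the control. Beside these marker counts, 1.41% of all tested transcripts were called. Only 2 of 15 wing disc markers, *ct* and *Ubx*, were identified (0 called). Both were lower in the mutant, and their sum ran between 5706 and 7027 there and between 8471 and 9686 in the control. They too were identified because they tended to differ, so the labeled tissue could not be checked on its own genes. The part of these shifts in the signals of the 4 members was not tested. In such pooled tissue, fewer cells of a type and less RNA per cell cannot be told apart.

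Finally, the transcripts whose pattern over the 6 replicates was most like that of each member were found by the root mean square distance between log2 values centred on their own mean. For *swa* these were *CG4318* (distance 0.22, r = 1.00), *w* (0.22, r = 1.00) and *Muc14A* (0.52, r = 1.00), all on the X chromosome. *CG4318* gave 7396, 7062 and 6665 in the mutant, against 142.3, 96.3 and 110.1 in the control. *Muc14A*, a mucin-type gene with 32 annotated genes between it and *Myb*, gave 1353, 1369 and 1194 in the mutant, against 39.1, 41.4 and 40.6 in the control.

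For *fs(1)N* the closest patterns were *CG10137* (distance 0.03, r = 1.00), *CG6405* (0.06, r = 1.00) and *CG8958* (0.09, r = 1.00), and for *hdm* they were *CG6405* (0.07), *fs(1)N* (0.10) and *CG10137* (0.10). For *fs(1)Yb* they were *CG10137* (0.08), *fs(1)N* (0.10) and *Syngr* (0.12), a synaptogyrin gene of vesicle membranes. *CG10137* gave 2179, 2178 and 2075 in the mutant, against 85.7, 112.8 and 89.8 in the control, nearly the values of *fs(1)N* replicate by replicate. *CG10137* and *CG6405* lie on chromosome 2L and *Syngr* on 2R. With 3 replicates a genotype, any transcript with a large and even difference has r near 1, and these likenesses describe 6 samples. Of the transcripts called higher in the mutant, 26 of 131 (19.8%) lie on the X chromosome, and among those called lower 15 of 103 (14.6%) do. The 26 include the 4 members, which were chosen as X-linked, and 22 of 127 (17.3%) remain without them. Of 13962 annotated protein-coding genes, 2197 (15.7%) lie on the X chromosome, and the 17.3% and 14.6% are near that share. Genes and transcripts are not the same unit.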

How the data were processed

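Per the labels and the study's methods, random-primed Cy3 cDNA was hybridized to NimbleGen 12-plex expression arrays, and the authors background-corrected, quantile-normalized and summarized the probes by RMA in ArrayStar. The deposited values are linear signal intensity per transcript and array. The labeled cDNA was double-stranded, so overlapping antisense RNA was not separated. Of 21051 rows, 4414 (21.0%) held 14.158 on all 23 arrays and were left out. Array medians over the rest were 996 to 1060. Slides and scan dates were not used here. No other per-sample column was present (0).

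Signals were converted to log2, and technical arrays were averaged within biological replicates by title. The study's design text places the control replicate with 3 arrays under another number, and the titles were followed. The 6 means were compared with limma 3.58.1 in R 4.3.3 (lmFit, eBayes, two-sided) with Benjamini-Hochberg adjustment over 16637 transcripts, and the fit was tested on simulated data. A call needs an adjusted p under 0.001 and a signal of at least 500 in a replicate. These thresholds are those of the study's methods, which used a t-test. The labels do not say how the biological replicates were separated, so p-values measure the spread between these samples.

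To see whether replicate numbers pair the samples, each replicate's difference from its genotype's mean was correlated with that of the other genotype's replicate of the same number. Over all 16637 tested transcripts this gave r of 0.20, 0.18 and 0.28 for replicates 1, 2 and 3, all over 0.1. Among the 9295 brighter ones alone, r was 0.19, 0.38 and 0.55, so replicates 2 and 3 were more alike there. The main fit has no block, and the value with the replicate number as a block is given beside results whose call it changes. The labels do not state a shared day or batch. Symbols came from a supplementary sheet of the study, in part, for identity alone (1999 transcripts), and current names and gene order from RefSeq (Release 6). No coordinates are given, since the array's build is not given in the sources used here.

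The members and lists were chosen with earlier results of these data known. Named are the 4 members, each called gene of a related list and up to 4 more of that list by size of change, each identified neighbor, *Myb*, *AlkB* and *w*, and the 3 nearest patterns of each member. Alternatives covered scaling, dim signals, the signal minimum, the threshold, the tests (all arrays with duplicateCorrelation, statmod 1.5.0, included), technical replicates, the replicate block and each replicate left out.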

Additional observations from a re-analysis of the deposited data

How the results depend on the processing

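The changes of the 4 members kept their direction under all 13 alternatives run for them. They ran between 5.47 and 6.10 for *swa*, 4.33 and 4.58 for *fs(1)N*, 4.30 and 4.56 for *fs(1)Yb*, and 3.80 and 4.47 for *hdm*. With signals under 100 set to 100, those of *swa* (5.47) and *hdm* (3.80) moved by more than 1 SD between replicates, because their control signals (means 68.4 and 67.5) are well under 100. The control mean of *fs(1)N* (92.8) is also under 100 but nearer to it, and its change moved less, to 4.33. The counts of calls depended on the test. Against 234 called transcripts, there were 61 with the replicate block, 17 by the methods' t-test over 6 means, 1184 with all arrays and a random block, 2788 by the methods' t-test on the 23 arrays, which takes technical arrays as independent, and 1066 at an adjusted p under 0.05. Leaving out a biological replicate gave 70 to 317. Against 10 called related genes, the same settings gave 3, 0, 31, 37 and 27, and leaving out a replicate gave 2 to 13. Against 0 called neighbor genes, there were 2 with the random block, 6 by the methods' t-test on the 23 arrays, 4 at 0.05, 1 with the signal minimum before the test (*CG3842*), 1 with no minimum (*vilya*), 1 with an intensity trend and robust prior, 0 by the methods' t-test over 6 means and 0 with the replicate block. None of the 10 called related genes and none of the 9 identified neighbors changed sign under any alternative. The promoter motif search was not run. Signals near 50 to 100 limit the folds of the dim genes.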
